A study of Homo sapiens with 6 samples.

Results

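The 10 genes described here take up cystine, make and recycle glutathione, or set how far membrane lipids are protected from peroxidation. They are listed by name for their known roles, with earlier results of these data known, and all 10 were found among the 26902 gene symbols of the deposited table. They are SLC7A11, GCLC, GCLM, GSS, CHAC1, GSR, TXNRD1, GPX4, AIFM2 and ACSL4. RNA was sequenced from the established human melanoma line HMCB, which carries NRAS Q61K per the labels, in both groups alike. Cells of 1 group (siNC, n = 3 libraries) received a control siRNA, those of the other (siAHCYL1, n = 3 libraries) an siRNA to AHCYL1, and RNA was extracted 3 days later. The study is a knockdown in 1 line, and its stated question is how AHCYL1 supports proliferation of NRAS-mutant melanoma cells. Replicates are labelled as biological, but no separate cultures are named, and the p-values therefore cover only the spread between these libraries, which may be technical.

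Cystine enters cells through a heterodimer of SLC7A11 and SLC3A2 in exchange for glutamate, and is reduced to cysteine. Glutamate-cysteine ligase joins cysteine to glutamate, glutathione synthetase adds glycine, and glutathione then serves as electron donor for GPX4, which reduces lipid peroxides in membranes. When this line fails, iron-dependent lipid peroxidation kills the cell, a death called ferroptosis. Melanoma cells that have lost melanocytic differentiation are known for their sensitivity to it. SLC7A11, GCLC, GCLM, GSR and TXNRD1 are textbook targets of the transcription factor NRF2, and SLC7A11 and CHAC1 are targets of ATF4, the factor of the integrated stress response.

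Levels are in TPM, a unit per transcript length in which every library has the same total, so that a level is a share of a library's RNA. Sequencing depth cannot be read from such values and is unknown, and no detection limit was set. Changes are log2 fold changes of siAHCYL1 against siNC on the log2(TPM + 1) scale with their standard error (SE), a scale that understates the change of low genes. A gene was called at a limma adjusted p under 0.05, adjusted over 13266 tested genes. In bulk RNA, fewer cells making a transcript and less of it per cell cannot be told apart.

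The knockdown was present in every siAHCYL1 library, where AHCYL1 stood at 8.56% of its control mean (log2 fold change -3.44, limma adjusted p = 5.64e-08). Of the melanocyte and melanoma markers, SOX10 was at a mean of 1037 TPM in siNC, while TYR and PRAME were listed at 0 in all 6 libraries. The summed level of these 12 markers was 1300 to 1345 TPM in siNC and 1418 to 1491 TPM in siAHCYL1, with 6 of 9 tested higher and 1 lower. The lower one was DCT, which fell from a mean of 11.41 to 0.34 TPM (log2 fold change -3.23, limma adjusted p = 1.14e-06). The sum is mostly SOX10 and does not show this fall. The 27 markers of 4 other cell types were low, but their sums moved between the groups. The endothelial sum was 56.6 to 70.9 TPM in siNC and 34.3 to 38.5 TPM in siAHCYL1, and the epithelial sum 35.9 to 46.5 and 29.6 to 33.5 TPM. The fibroblast sum was 15.3 to 17.9 TPM in siNC and 26.1 to 32.4 TPM in siAHCYL1, while that of immune and blood cells overlapped, at 14.9 to 28.8 and 11.7 to 18.1 TPM. All 9 of these markers that were tested were called, 6 lower, among them EGFL7 (55.1 to 29.9 TPM on average) and HBA1 (18.04 to 6.35 TPM), and 3 higher, among them LUM (13.98 to 28.96 TPM) and PTPRC (3.45 to 8.55 TPM). Their part in the results was not tested. Markers of these 4 types that were listed at 0 in all 6 libraries include CDH1, KRT5, CD3E, HBB, VWF, PDGFRA and FAP. Between 13035 and 13189 genes reached 1 TPM in a library.

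Of the 10 genes, 6 were lower and 2 higher after the AHCYL1 siRNA, and 2 did not pass the test. The cystine exchanger, both subunits of glutamate-cysteine ligase, the reductases of glutathione and thioredoxin and the glutathione-degrading CHAC1 were lower. Glutathione synthetase and AIFM2 were higher, and GPX4 and ACSL4 did not pass. Over all tested genes 21.2% were called lower, 30.4% higher and 51.6% in either direction. The median log2 fold change of the 10 genes was -0.55, and that of all tested genes was 0.06. In 8 of the 10 genes the groups did not overlap, against 59.2% of all tested genes. The share of higher among all calls was 58.9%, and 48.1% after quantile normalization. All 8 calls were kept, in the same direction, in each of the 14 refits in which the gene was tested.

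**Figure D1:**
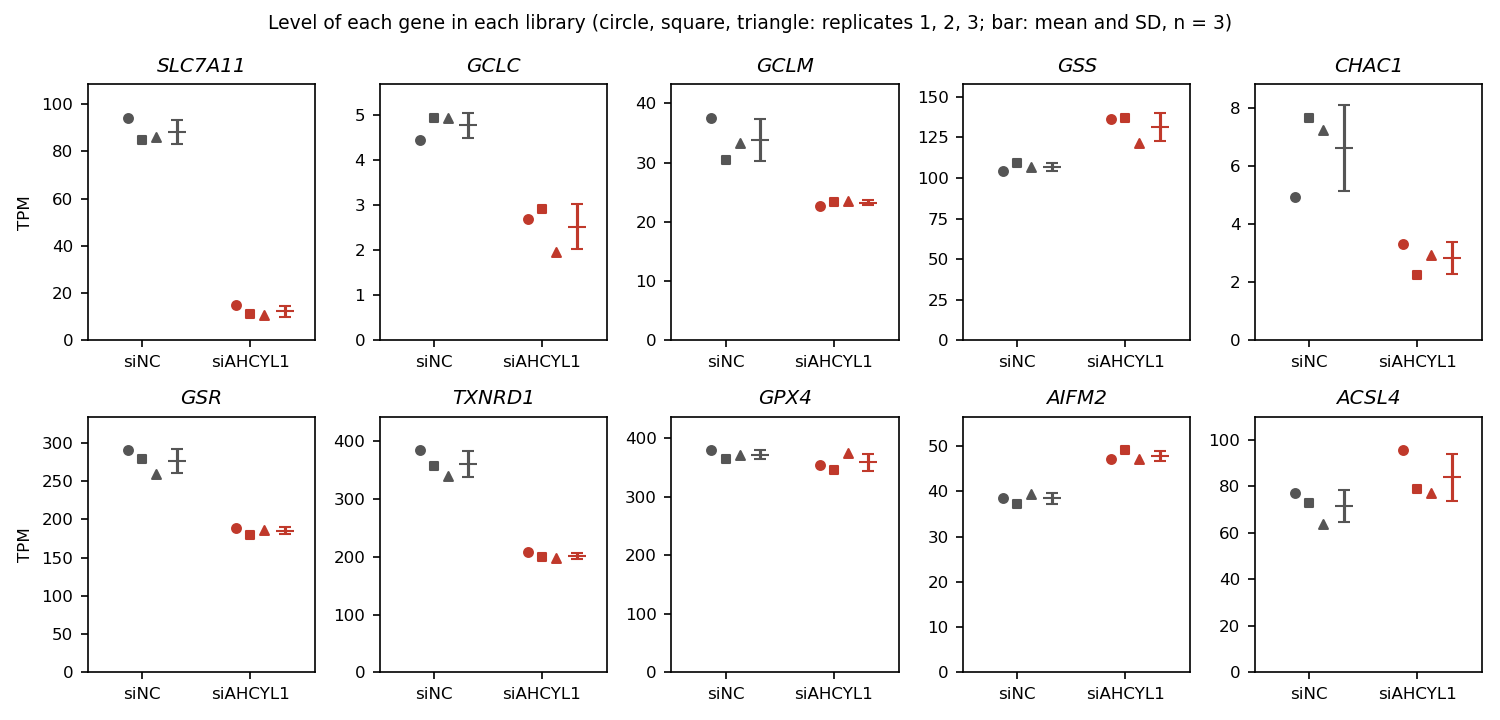
TPM (vertical axis, from 0) of each of the 10 genes in the 3 siNC libraries (grey) and the 3 siAHCYL1 libraries (red), with the mean and SD beside the points. The groups are apart in 8 panels and overlap in those of GPX4 and ACSL4, and the widest gap is that of SLC7A11, from 84.59 to 94.18 TPM in siNC against 10.80 to 14.76 TPM in siAHCYL1.

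SLC7A11 (ENSG00000151012), the light chain that carries out cystine-glutamate exchange, lies on chromosome 4 from 138164097 to 138242349 of GRCh38. It had 94.18, 84.59 and 86.19 TPM in the siNC libraries and 14.76, 11.10 and 10.80 TPM in the siAHCYL1 libraries. Every siAHCYL1 library was far below every control, and replicate 1 was the highest of each group. The mean fell 7.23-fold, from 88.3 ± 5.14 to 12.2 ± 2.2 TPM (SD, n = 3), which left 13.8% of the control level. On the log2 scale the change was -2.77 (SE 0.12, limma adjusted p = 5.03e-07), the 10th lowest of all 13266. An antisense gene, SLC7A11-AS1, covers 276 of its 9645 exonic bases, and the libraries were not strand-specific. That gene was listed at no more than 0.13 TPM in any library.

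The heavy chain moved less than its partner. SLC3A2 (CD98), which brings SLC7A11 and several other amino acid exchangers to the cell surface, had 565.65, 482.46 and 516.18 TPM in siNC and 414.64, 433.08 and 419.05 TPM in siAHCYL1. It was lower in all 3 siAHCYL1 libraries, by a log2 fold change of -0.30 (SE 0.07, limma adjusted p = 0.0049). Within a library, SLC7A11 stood at 0.167, 0.175 and 0.167 of the SLC3A2 level in siNC and at 0.0356, 0.0256 and 0.0258 in siAHCYL1. This ratio therefore fell by 2.57 on the log2 scale, with no overlap between the groups. Its two-sided exact permutation p was 0.1, the smallest that 3 libraries against 3 allow, and 0.133 after adjustment over the 4 ratios tested, so no ratio here could pass 0.05.

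The transcript of SLC7A11 carries GTATGCA, a 7-mer that an earlier pass over these same data had picked out among 3′ UTRs of genes that were lower after this siRNA. Its sites are shown because SLC7A11 is the 1 gene of the 10 whose 3′ UTR holds the 7-mer. The 3′ UTRs searched were of unequal length, from 22 bases in GPX4 to 7859 in SLC7A11, and a longer one has more room for a copy. The sites stand beside the 1 copy in AHCYL1, the siRNA target, which lies in its coding sequence. How many genes carry the 7-mer in the coding sequence was not counted, so that copy has no background here. Each window has 29 bases, 5′ to 3′ on the transcript strand, from GENCODE transcripts on GRCh38, with the 7-mer in capitals. The SLC7A11 windows lie on the minus strand, at chr4:138219266-138219294 in the coding sequence, and at chr4:138168728-138168756 and chr4:138165408-138165436 in the 3′ UTR. The AHCYL1 window lies on the plus strand, at chr1:110018418-110018446.
SLC7A11 coding: tattatggaatGTATGCAtatgctggctg
SLC7A11 3′ UTR, first: tcccaacatgcGTATGCAtttagactgta
SLC7A11 3′ UTR, second: gtgattttataGTATGCAcatgtcagaaa
AHCYL1 coding: acagttgtatcGTATGCAatatgggccac

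A transcript with an annotated 3′ UTR was found for 11968 of the tested genes, and 881 of these (7.36%) carried GTATGCA there. Of the carriers, 40.2% were called lower and 20.3% higher, with a median log2 fold change of -0.16. Among the other 11087 genes, 21.0% were lower and 31.0% higher, with a median of 0.06. The 7-mer had been picked among genes lower in these same data. More lower genes among its carriers therefore follow from that choice to an unknown degree and are no independent evidence. The same holds for the large falls given below, which include SLC7A11. SLC7A11 had the 3rd lowest log2 fold change of the 881 carriers. Calls with a fall of 2 or more on the log2 scale, as in SLC7A11, were made for 14 carriers (1.59%) and 29 others (0.262%), so that 32.6% of these 43 genes were carriers. Carriers were not matched to the others for 3′ UTR length, which was 7859 bases in SLC7A11. Of 239 genes with the longer GTATGCAA, 49.4% were lower and 14.2% higher. These 239 are a part of the 881 carriers of GTATGCA and also carry TATGCAA. The limit of that choice holds for them too, and their share is no independent evidence. The SLC7A11 3′ UTR held 0 copies of GTATGCAA. For TATGCAA, with 1 copy there, 30.5% of 1331 carriers were lower and 24.6% higher. For TCGGAGA, with 0 copies there, 13.6% of 206 carriers were lower and 51.5% higher, against 22.6% and 29.9% of the others. How TATGCAA and TCGGAGA were chosen is not given here, so neither serves as a neutral control. The sequence of the siRNA is not given in the sources used here, and the part of GTATGCA in the fall of SLC7A11 was not tested. The other lower genes of the 10 fell without a copy in the 3′ UTR searched.

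By the distance between the 6 values of log2(TPM + 1), each less its siNC mean, the 5 genes nearest to SLC7A11 among 10876 were TMEM64, SCARA5, NRCAM, PTPRZ1 and TF. TMEM64, a membrane protein gene, had 48.03, 46.23 and 42.22 TPM in siNC and 7.05, 6.10 and 5.86 TPM in siAHCYL1, and was the nearest, at a distance of 0.26. NRCAM, a neural cell adhesion gene, had 76.69, 74.50 and 71.98 TPM in siNC and 14.74, 10 and 10.65 TPM in siAHCYL1. Of these 5 genes, TMEM64, SCARA5, NRCAM and TF carried GTATGCA in the 3′ UTR and PTPRZ1 did not. They were picked for a fall like that of SLC7A11, and the share to set beside them is the 32.6% among genes that fell by 2 or more, not the 7.36% of all. These 5 genes and SLC7A11 are themselves among the 43 genes behind that share, so it is not an independent background. The copy in TF lies 12408 bases after the stop codon, in a transcript model with an unusually long 3′ UTR, and whether that stretch was transcribed was not tested. The distance rests on 6 libraries in 2 groups, so it mainly reads the size of the change between the groups.

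Glutamate-cysteine ligase, the rate-limiting enzyme of glutathione synthesis, was lower in both of its subunits. GCLC (ENSG00000001084, chromosome 6 from 53497341 to 53616970), the catalytic subunit, had 4.44, 4.93 and 4.94 TPM in siNC and 2.70, 2.91 and 1.95 TPM in siAHCYL1. All siAHCYL1 values were below all controls, at 52.8% of the control mean (log2 fold change -0.72, SE 0.15, limma adjusted p = 0.00366). GCLC had the lowest mean level of the 10 genes in both groups, and without a known depth its counting error could not be set.

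GCLM (ENSG00000023909, chromosome 1 from 93885205 to 93909456), the modifier subunit that raises the ligase's activity, had 37.57, 30.52 and 33.39 TPM in siNC. It had 22.74, 23.40 and 23.59 TPM in siAHCYL1, below every control and within a narrow span. The mean fell to 68.7% of the control (log2 fold change -0.52, SE 0.09, limma adjusted p = 0.00136). Per length, GCLM was 8.46, 6.19 and 6.76 times as abundant as GCLC in siNC, and 8.42, 8.04 and 12.1 times in siAHCYL1. These ratios overlapped between the groups, and their difference of 0.40 on the log2 scale had an exact permutation p of 0.3 (0.3 adjusted over the 4 ratios). It was 0.22 without siAHCYL1 replicate 3, 0.61 without replicate 1 of both groups and 0.20 with 1 added to each TPM.

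GSS, glutathione synthetase, which completes the tripeptide, went the other way. GSS (ENSG00000100983, chromosome 20 from 34928433 to 34956027) had 104.60, 109.00 and 106.84 TPM in siNC and 136.21, 137.08 and 121.41 TPM in siAHCYL1. Every siAHCYL1 value was above every control, replicate 3 by the least, and the mean was 1.23 times the control (log2 fold change 0.30, SE 0.07, limma adjusted p = 0.00544). After quantile normalization the log2 fold change was 0.20, and it was still called.

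CHAC1, a cytosolic enzyme that cleaves glutathione and a familiar marker of ATF4 activity, was lower. CHAC1 (ENSG00000128965, chromosome 15 from 40952962 to 40956519) had 4.92, 7.66 and 7.25 TPM in siNC and 3.31, 2.23 and 2.93 TPM in siAHCYL1. The groups did not overlap, although the lowest control, replicate 1, lay nearer to the siAHCYL1 libraries than to the other controls. The mean fell from 6.61 ± 1.48 to 2.82 ± 0.55 TPM (SD, n = 3; log2 fold change -0.98, SE 0.18, limma adjusted p = 0.00181), the second largest fall of the 10. By the same distance as for SLC7A11, the 5 genes nearest to CHAC1 were CNTNAP1, ADCK3, ETNK2, FKBP11 and GPR162, at distances from 0.28 to 0.34. CNTNAP1, a neuronal adhesion gene, had 23.80, 30.52 and 27.34 TPM in siNC and 13.95, 12.05 and 12.57 TPM in siAHCYL1.

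Both flavoprotein reductases that pass electrons from NADPH to thiols were lower. GSR (ENSG00000104687), glutathione reductase, which regenerates glutathione from its oxidised form, had 290.66, 278.88 and 258.91 TPM in siNC and 189.01, 179.93 and 186.45 TPM in siAHCYL1. The lowest control was above the highest siAHCYL1 library, and the mean fell to 67.0% of the control (log2 fold change -0.57, SE 0.06, limma adjusted p = 7.69e-05).

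TXNRD1 (ENSG00000198431, chromosome 12 from 104215779 to 104350305), the cytosolic thioredoxin reductase and a selenoprotein, had 384.88, 357.26 and 340.32 TPM in siNC. It had 208.30, 199.92 and 198.85 TPM in siAHCYL1, far below the controls, at 56.1% of their mean (log2 fold change -0.83, SE 0.06, limma adjusted p = 9.72e-06). Its fall was set against that of GSR within each library, where TXNRD1 stood at 1.32, 1.28 and 1.31 times GSR in siNC and at 1.10, 1.11 and 1.07 times in siAHCYL1. These ratios did not overlap, and their difference of -0.26 on the log2 scale had the smallest possible exact permutation p, 0.1 (0.133 adjusted).

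GPX4 (ENSG00000167468, chromosome 19 from 1103926 to 1106791), the selenoprotein that reduces phospholipid hydroperoxides, had 379.68, 365.29 and 371.22 TPM in siNC and 354.87, 346.25 and 374.78 TPM in siAHCYL1. The groups overlapped and the test was not passed (log2 fold change -0.05, limma adjusted p = 0.454). In the main fit the 95% interval of the log2 fold change ran from -0.18 to 0.07, which leaves out a change as large as that of any of the 8 called genes. With median-of-ratios scaling GPX4 had -0.12 (SE 0.06) and GSS 0.23. After quantile normalization GPX4 had -0.11 (SE 0.05) and GSS 0.20. Intervals were not computed for these scalings, so the exclusion is limited to the main fit.

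AIFM2 (ENSG00000042286, chromosome 10 from 70098223 to 70132934), also called FSP1, reduces coenzyme Q and so traps lipid radicals without glutathione. It had 38.66, 37.24 and 39.45 TPM in siNC and 47.20, 49.14 and 47.19 TPM in siAHCYL1, with every siAHCYL1 library above every control. The mean was 1.24 times the control (log2 fold change 0.31, SE 0.07, limma adjusted p = 0.00483).

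ACSL4 (ENSG00000068366, chromosome X from 109624244 to 109733403) activates polyunsaturated fatty acids for entry into phospholipids, the substrate of ferroptosis, and so acts against the defence. It had 77.28, 73.03 and 63.83 TPM in siNC and 95.59, 78.98 and 76.94 TPM in siAHCYL1. Replicate 1 was the highest of each group, the groups overlapped, and the test was not passed (log2 fold change 0.23, SE 0.10, 95% interval from -0.0032 to 0.46, limma adjusted p = 0.0906). The call depended on the model, since with the replicate number as a block the adjusted p was 0.00976. GPX4 stood at 4.91 to 5.82 times ACSL4 in siNC and at 3.71 to 4.87 times in siAHCYL1. These ratios did not overlap (difference -0.28 on the log2 scale, exact permutation p = 0.1, 0.133 adjusted). With 1 library left out the difference ran from -0.37 to -0.18, the latter without siAHCYL1 replicate 1.

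**Figure D2:**
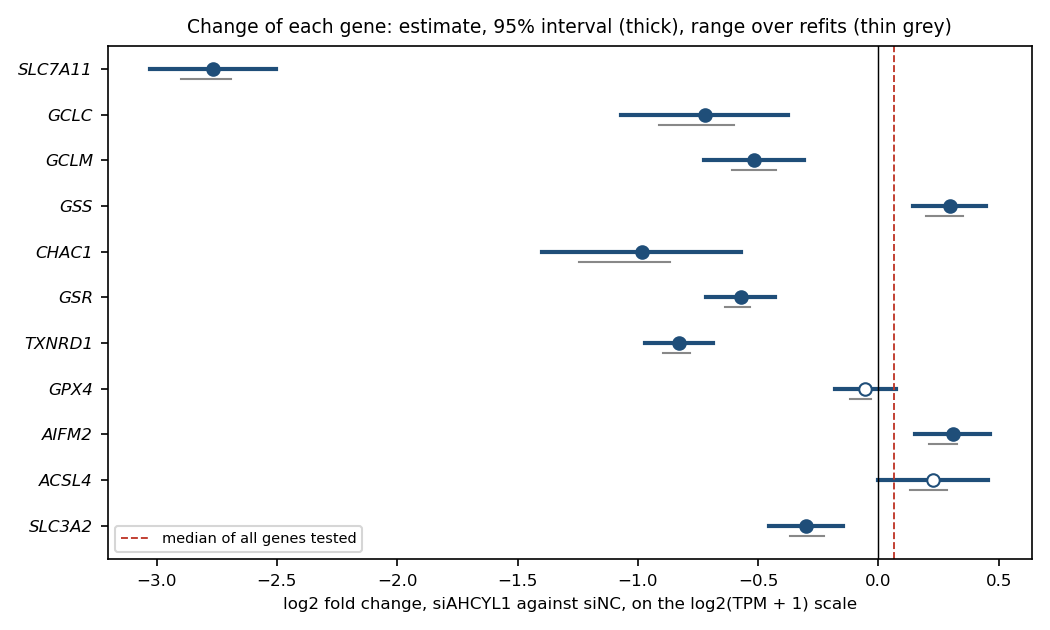
Log2 fold change of siAHCYL1 against siNC (horizontal axis, log2(TPM + 1) scale) of the 10 genes and SLC3A2, with the 95% interval as a thick line and the range over the refits as a thin grey line. Filled points passed the test and open points (GPX4 and ACSL4) did not, and the dashed line is the median of all tested genes, 0.06.

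**Figure D3:**
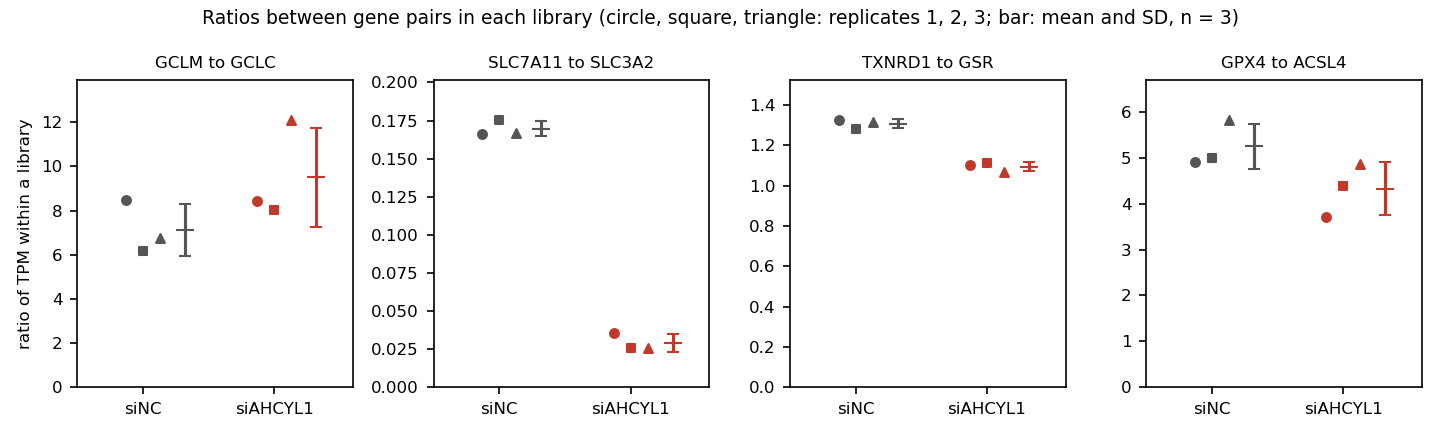
Ratio of the TPM of 2 genes within each library (vertical axis, from 0), for 4 pairs, with the mean and SD of 3 libraries beside the points. The groups overlap for GCLM to GCLC and are apart for the other pairs, most widely for SLC7A11 to SLC3A2, at 0.167 to 0.175 in siNC and 0.0256 to 0.0356 in siAHCYL1.

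Promoter windows of 300 bases, from 250 before to 50 after an annotated start, were found in RefSeq (GRCh38.p14) for 7 of the 10 genes, leaving SLC7A11, GSS and GSR. They were searched on both strands for TGACNNNGC, the core of the antioxidant response element that NRF2 binds, and for TGATGCAA, an element of C/EBP and ATF factors; no match of 1 overlapped a match of the other. The first was in 13.3% and the second in 0.866% of 35116 windows. The first matched in GCLM, TXNRD1 and AIFM2, of which the former 2 were lower and AIFM2 higher after the AHCYL1 siRNA, and the second matched in CHAC1. No match was found in the windows of GCLC, GPX4 and ACSL4. The matches are printed because they set genes that moved in opposite directions side by side, 5′ to 3′ on the gene's strand, with the match in capitals.
GCLM, minus strand, chr1:93909431-93909489: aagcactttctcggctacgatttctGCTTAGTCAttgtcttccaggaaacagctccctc
TXNRD1, plus strand, chr12:104215655-104215713: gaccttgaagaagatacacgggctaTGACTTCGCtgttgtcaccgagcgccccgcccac
TXNRD1, second start, plus strand, chr12:104286905-104286963: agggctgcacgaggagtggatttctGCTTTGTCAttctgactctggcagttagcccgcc
AIFM2, minus strand, chr10:70132826-70132872: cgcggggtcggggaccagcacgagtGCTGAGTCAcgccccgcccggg
CHAC1, plus strand, chr15:40953237-40953294: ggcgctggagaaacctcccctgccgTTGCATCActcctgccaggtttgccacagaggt

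In GCLM and AIFM2 the match stood on the opposite strand, 34 and 22 bases before the start. In TXNRD1 it stood on the gene's strand 99 bases before the first start, with another match on the opposite strand across that start, and on the opposite strand 102 bases before the second. The match in CHAC1 stood on the opposite strand, 209 bases before the start. A match of letters is a description of the window, and no binding was measured in these libraries.

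The other genes of these pathways moved in both directions. Of 140 genes on 10 lists, 139 were found and 122 tested, of which 40 were lower and 30 higher, and 52 did not pass. The median log2 fold change over the 122 was -0.06. Thus 32.8% of them were called lower and 24.6% higher, beside 21.2% and 30.4% of all tested genes. Of the 121 that had a searched 3′ UTR, 3 carried GTATGCA, 2 of them lower, which were FADS2 and ACSL3.

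Cystine and cysteine supply beyond SLC7A11 moved in both directions. Of 8 tested genes, which include the heavy chain SLC3A2, 2 were lower and 2 higher (median 0.06). MPST, a mercaptopyruvate sulfurtransferase, was higher (92.5 ± 11.3 to 118 ± 8.65 TPM, log2 fold change 0.35), as was CTNS, the lysosomal cystine exporter (0.30), and SLC1A1, a glutamate and cysteine transporter, was lower with SLC3A2 (-0.21). The call of MPST was lost after quantile normalization (limma adjusted p = 0.0524) and in the fit that left out both libraries numbered 1 (0.0643). That of SLC1A1 was lost in 5 of the 6 refits with 1 library left out and that of CTNS in all 6. The transsulfuration enzymes CBS (96.2 ± 1.01 and 90.4 ± 3.19 TPM) and CTH (130.5 ± 7.74 and 145 ± 4.71 TPM) did not pass, with limma adjusted p of 0.248 and 0.0834, although neither gene's groups overlapped.

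Of 10 tested genes of glutathione turnover and transport, 2 were higher and none lower (median 0.06). SLC25A40, a mitochondrial glutathione carrier, rose from 23.8 ± 1.24 to 43.6 ± 2.13 TPM (0.85, limma adjusted p = 3.29e-05). GGT7, of the gamma-glutamyltransferase family, rose as well (0.62, adjusted p = 0.000362). CHAC2, the paralog of CHAC1, had 23.16, 28.19 and 24.81 TPM in siNC and 19.16, 24.18 and 22.94 TPM in siAHCYL1, overlapping groups that did not pass (-0.19, adjusted p = 0.176).

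Of 21 tested enzymes that use glutathione, 6 were lower and 5 higher (median -0.06). The largest rise among the 122 genes was that of GSTA4, a glutathione transferase that acts on the lipid peroxidation product hydroxynonenal, from 30.4 ± 2.59 to 164 ± 11.1 TPM (2.39, limma adjusted p = 2.12e-07). GSTZ1, maleylacetoacetate isomerase, rose from 10.8 ± 2.26 to 40.6 ± 2.38 TPM (1.84), and GSTK1, a transferase of mitochondria and peroxisomes, rose by 0.74 on the log2 scale. GSTM3, a transferase of the mu class, fell (-0.86). GSTM2, of the same class, rose by nearly as much, from 25.1 ± 2.76 to 45.4 ± 4.22 TPM (0.83, limma adjusted p = 0.000177). The mu-class genes are similar neighbours, so reads may be split uncertainly between them, and both values are uncertain for that reason. GPX1, the cytosolic peroxidase, averaged 209 TPM in siNC and 236 TPM in siAHCYL1, with a limma adjusted p of 0.0771.

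The thioredoxin and peroxiredoxin system was divided, with 4 of 12 lower and 5 higher (median 0.14). TXNIP, which binds and inhibits thioredoxin, rose from 24.7 ± 1.99 to 67.3 ± 4.85 TPM (1.41, limma adjusted p = 3.12e-06), and TXNRD3, a relative of TXNRD1, rose (0.87). PRDX1, an abundant cytosolic peroxiredoxin, fell from 772 ± 25.1 to 479 ± 12.7 TPM (-0.69), and SRXN1, the sulfiredoxin that repairs peroxiredoxins, fell (-0.83). TXNRD2, the mitochondrial reductase, averaged 31.2 TPM in siNC and 33.5 TPM in siAHCYL1, with a limma adjusted p of 0.561.

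Of 9 genes that supply NADPH, 4 were lower and 2 higher (median -0.15). IDH1, cytosolic isocitrate dehydrogenase, fell from 217 ± 13.4 to 152 ± 11.2 TPM (-0.51). NNT, the mitochondrial transhydrogenase, rose from 59.8 ± 4.51 to 114 ± 9.15 TPM (0.92), and PGLS, an enzyme of the pentose phosphate pathway, rose (0.73). Limma adjusted p was at most 0.00044 for these 3.

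The list of NRF2 regulators and other NRF2 targets had 8 of 14 tested genes lower and 2 higher (median -0.27). The lower ones include the regulators NFE2L2, MAFF and MAFG. Genes placed on the other lists are not counted here, so this is not a count of all NRF2 targets. NFE2L2, the gene of NRF2 itself, fell from 176 ± 21.3 to 116 ± 18.7 TPM (-0.60, limma adjusted p = 0.00258). The HMOX1 (-1.52), OSGIN1 (-1.22), FTL (-0.78) and FTH1 (-0.50) genes, of heme breakdown, growth inhibition and ferritin, fell, though FTH1 did not pass after quantile normalization (-0.13, adjusted p = 0.17). MAFK, a small MAF partner of NRF2, rose from 82.3 ± 12.4 to 167 ± 19.3 TPM (1.01). NQO1, a classic NRF2 target, had 179 ± 16.5 and 154 ± 16.7 TPM in overlapping groups, with a limma adjusted p of 0.0895.

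The ATF4 arm had 4 of 9 tested genes lower and 2 higher (median -0.26). ASNS, asparagine synthetase, fell from 88.5 ± 10.9 to 37.2 ± 4.45 TPM (-1.23), with ATF4 itself (-0.35) and VLDLR, a lipoprotein receptor (-0.72). TRIB3, a pseudokinase induced by ATF4 and CHOP, rose from 17.1 ± 0.78 to 29.9 ± 0.47 TPM (0.77). CHAC1 and TRIB3, both known to answer ATF4, thus moved in opposite directions.

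Genes that promote lipid peroxidation had 3 of 12 lower and 4 higher (median -0.02), and 4 lipoxygenase genes were listed at 0 in all 6 libraries. SAT1, the polyamine acetyltransferase, rose from 52.6 ± 8.92 to 153 ± 14.6 TPM (1.53), and NCOA4, the receptor for ferritin autophagy, rose (0.46). POR, cytochrome P450 oxidoreductase, fell from 489.8 ± 18.8 to 317 ± 14.7 TPM (-0.63), and FADS2, a desaturase that makes polyunsaturated fatty acids, fell (-0.44).

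Defences that do not need glutathione had 8 of 17 lower and 4 higher (median -0.05). SCD, which makes monounsaturated fatty acids, fell (-1.21), and ACSL3, which activates them, fell from 189.8 ± 5.15 to 111 ± 11.8 TPM (-0.78). PLA2G6, a phospholipase that removes oxidised lipids, rose from 13.2 ± 0.90 to 26.2 ± 0.81 TPM (0.94), and COQ2, of coenzyme Q synthesis, rose (0.87). Of 10 genes for making selenoproteins, the class of GPX4 and TXNRD1, 1 was lower and 2 higher (median -0.13). SECISBP2, which recodes the stop codon to selenocysteine, rose from 21.7 ± 1.43 to 42.8 ± 5.15 TPM (0.94), SEPHS2, which makes the selenium donor, rose (0.27), and TRNAU1AP, which binds the selenocysteine tRNA, fell (-0.44). The call of SEPHS2 was lost under both other scalings (limma adjusted p = 0.0799 and 0.117) and without siAHCYL1 replicate 2 or 3 (0.0768 and 0.0557).

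**Figure D4:**
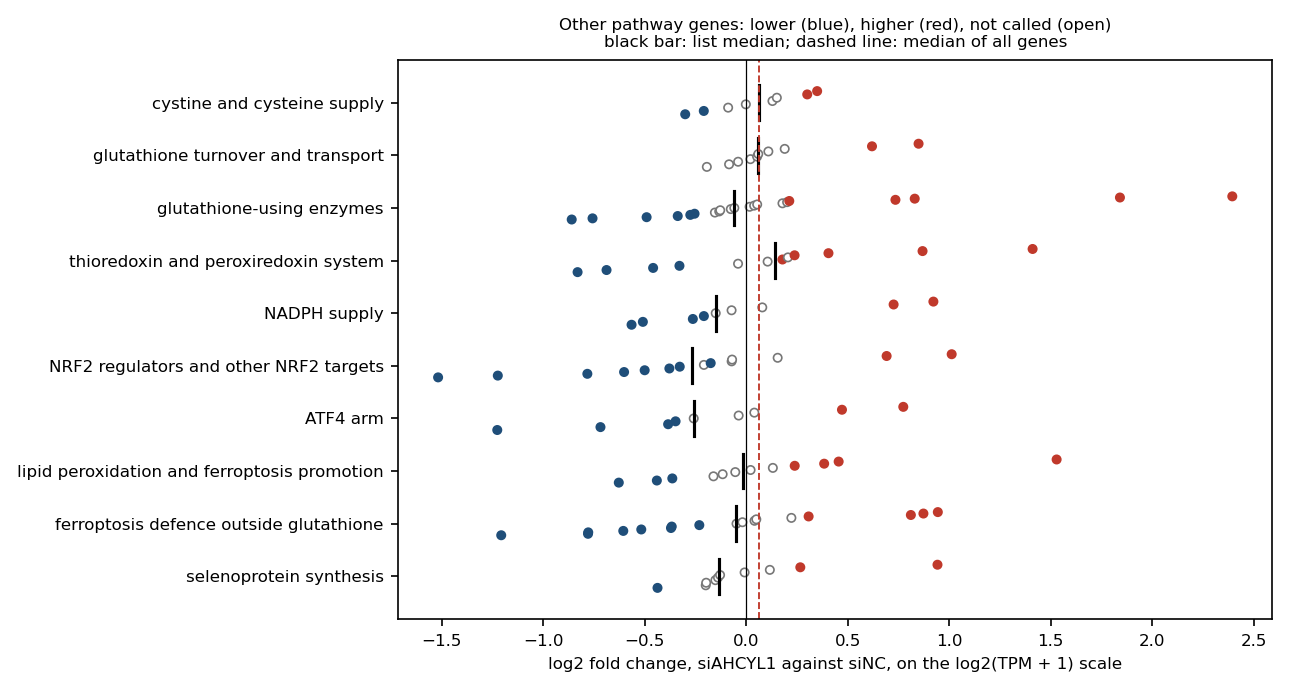
Log2 fold change of siAHCYL1 against siNC (horizontal axis) of each tested gene on 10 lists (rows), coloured where called lower (blue) or higher (red) and open where not. The black bar is the list's median and the dashed line that of all genes, and calls lie on both sides of 0 in 9 of the lists, the exception being glutathione turnover and transport.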

How the data were processed

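RNA of 6 HMCB libraries (3 siNC, 3 siAHCYL1) was extracted with a column kit and sequenced from non-directional libraries, per the labels' protocols. The authors deposited 1 table of TPM per gene; STAR, RSEM and GRCh38 were used per the submitters' processing notes, and their versions, like the annotation, were not stated. Columns with the prefix nc were read as siNC and those with si as siAHCYL1, the 1 other group. Every library has the same total, so depth is not kept.

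From these values, genes reaching 1 TPM in 3 or more libraries (13266) were kept, and their log2(TPM + 1) was compared by limma 3.58.1 (R 4.3.3; two-sided moderated test, intensity trend, Benjamini-Hochberg adjustment). The script was tested on simulated data first. Ratios were tested by exact permutation (scipy 1.17.1). Sites were sought in GENCODE v29 transcripts (the longest coding sequence of each gene), and promoters came from RefSeq. The genes named from each list were up to 4 called ones by adjusted p and the called one most against its list. CBS, CTH, CHAC2, GPX1, GSTM2, TXNRD2, NFE2L2, NQO1 and the markers were named after their values were seen. One gene that this rule names is not reported here. The genes, lists and 7-mer were chosen with earlier results of these data known. Alternatives were a pseudocount of 0.1, no filter or one at 5 TPM, quantile normalization, median-of-ratios scaling, the replicate block, no trend with robust moderation, each library left out, and no replicate 1.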

Additional observations from a re-analysis of the deposited data

How the results depend on the processing

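The count of lower genes among the 10 was 6 and of higher genes 2, and it stayed so in the refits except at 5 TPM, where 4 were lower since GCLC and CHAC1 were not tested, and with the replicate block, where 3 were higher. The log2 fold change of SLC7A11 ranged from -2.90 to -2.69, of GCLC from -0.91 to -0.60, of CHAC1 from -1.25 to -0.87, and of AIFM2 from 0.21 to 0.33. Adjusted p over the refits was at most 0.0316 for each of the 8 called genes. Over the 10 genes, 137 of 138 refitted values kept their call and direction, and ACSL4 passed with the replicate block. Of 671 refitted values of the other named genes, 652 kept both and 19 lost the call, and the cause was not tested. Genes called over the whole table numbered 6844, and 5672 to 7919 in the refits. No refit reversed the direction of AHCYL1, of the 10 genes, of the other refitted named genes or of the 4 ratios. The remaining genes of the table were not checked for this. The labels state no pairing, so the replicate number was left out of the model. The deviations of siNC and siAHCYL1 libraries of 1 number correlated at 0.233, 0.00092 and 0.154, and those of different numbers at -0.256 to 0.153. With the replicate block 7919 genes were called. AHCYL1 then had a log2 fold change of -3.44 with an SE of 0.057, against 0.096 in the main fit. Whether the numbers mark a pairing is unknown. Depth is unknown, so the counting error of the low genes GCLC and CHAC1 could not be set.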
